A study of Mus musculus with 6 samples.

Results

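The 32 genes described here are expressed in the mammalian oocyte, the female germ cell. They were named as a list of gene symbols, grouped by role into 3 zona pellucida genes, 2 growth factors, 5 transcription factors, 13 maternal effect genes, 3 germ cell RNA-binding genes and 6 genes of meiosis or other oocyte-enriched genes. All 32 were found among the 36727 genes of the deposited table, and the rule for choosing them sets no threshold on a measured value. The RNA came from ovaries, described in the labels as estrous-phased, of adult female F4 inbred Swiss albino mice aged 135 to 140 days. The 3 libraries of the high litter size group are replicates 1, 3 and 4 (called high 1, high 3 and high 4), and the 3 of the low litter size group are replicates 1, 2 and 5 (low 1, low 2 and low 5). Litter size is the only difference that the labels give between the groups, and all 6 samples share strain, sex, age range and tissue label. Whether each sample is 1 animal, or a pool, is not stated, so the spread on which each p-value rests may be between animals or between pools. How much of that spread is technical is not known, and p-values measure that spread alone. Libraries were made from polyadenylated RNA.

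An oocyte grows inside an ovarian follicle, surrounded by granulosa cells that feed it through gap junctions. While it grows it builds a glycoprotein coat, the zona pellucida, secretes growth factors that act on the granulosa and cumulus cells around it, and stores RNA and protein for the embryo's first divisions. Genes whose product is made by the mother and needed by the early embryo are called maternal effect genes, and many of the products gather in the subcortical maternal complex beneath the oocyte membrane. FIGLA, a helix-loop-helix factor that binds E-boxes, is known to act on zona genes, and the homeobox factor NOBOX is known to act on Gdf9 and other oocyte genes.

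Promoter sequence is shown for 1 gene in each of 5 roles, so that the motifs known for these factors can be seen beside genes whose levels are given later. The 4 genes Zp3, Bmp15, Nobox and Padi6 share the library pattern of most of the list, and Ybx2 departs from it. Each is the member of its role with the highest mean level among those matched in the RefSeq promoter table (GRCm38.p6), which held 23 of the 32 genes in 26 windows. No window was matched for Zp1, Zp2, Gdf9, Npm2, Nlrp14, Dppa3, Oas1d, Mos and Bcl2l10. The 250 bases before the annotated start are printed 5′ to 3′ on the gene's strand, with each E-box (CANNTG) in capitals. The regions are chr5:135979855-135980104 on the plus strand for Zp3, chrX:6320725-6320974 on the minus strand for Bmp15, chr6:43309555-43309804 on the minus strand for Nobox, chr4:140742644-140742893 on the minus strand for Padi6, and chr11:69935649-69935898 on the plus strand for Ybx2, for which the more upstream of 2 windows is shown.
Zp3: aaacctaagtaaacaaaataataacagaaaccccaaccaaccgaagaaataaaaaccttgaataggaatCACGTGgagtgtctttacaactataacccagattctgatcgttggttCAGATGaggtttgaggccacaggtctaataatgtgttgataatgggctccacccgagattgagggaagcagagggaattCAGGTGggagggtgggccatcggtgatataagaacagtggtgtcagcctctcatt
Bmp15: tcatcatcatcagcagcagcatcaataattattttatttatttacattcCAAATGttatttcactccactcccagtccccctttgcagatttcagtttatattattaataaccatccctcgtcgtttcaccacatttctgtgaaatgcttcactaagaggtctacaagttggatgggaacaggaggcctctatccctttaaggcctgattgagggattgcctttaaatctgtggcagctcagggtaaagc
Nobox: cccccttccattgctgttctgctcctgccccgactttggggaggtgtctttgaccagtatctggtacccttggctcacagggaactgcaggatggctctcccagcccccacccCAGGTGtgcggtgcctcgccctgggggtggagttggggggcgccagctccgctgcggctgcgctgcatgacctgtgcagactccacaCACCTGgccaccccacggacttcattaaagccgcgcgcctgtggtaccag
Padi6: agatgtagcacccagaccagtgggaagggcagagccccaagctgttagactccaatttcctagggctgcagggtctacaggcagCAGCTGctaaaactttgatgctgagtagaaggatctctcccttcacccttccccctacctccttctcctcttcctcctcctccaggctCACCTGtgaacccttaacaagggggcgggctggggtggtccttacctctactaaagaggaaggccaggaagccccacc
Ybx2: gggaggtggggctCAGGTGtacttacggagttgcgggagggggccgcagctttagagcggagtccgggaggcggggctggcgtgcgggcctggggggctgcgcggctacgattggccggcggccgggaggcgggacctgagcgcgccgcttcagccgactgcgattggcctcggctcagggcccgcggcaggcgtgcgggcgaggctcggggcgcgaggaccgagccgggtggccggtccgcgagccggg

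The printed stretch of Zp3 holds 3 E-boxes, those of Nobox and Padi6 hold 2 each, and those of Bmp15 and Ybx2 hold 1 each. In the full windows of 300 bases, which run to 50 bases past the start, 21 of the 23 matched genes had an E-box. The pattern CANNTG is the same on both strands, and it was present in 88.5% of the 26 windows of the listed genes and in 72.3% of all 32851 windows. The elements TAATTG and TAATTA, to which homeobox factors such as NOBOX bind, were searched on both strands, and no stretch of 6 bases counts as both. TAATTG was in 7.69% of the listed genes' windows and 8% of all windows, and TAATTA was in 7.69% and 5.29%. Of the 23 matched genes, 4 held either element in a window, namely Padi6 and Ooep (TAATTG) and Nlrp5 and Bmp15 (TAATTA). Counted by window and not by gene, 12.4% of all windows held either. A TATA box (TATAAA, both strands) was in 11.5% of the listed genes' windows and 13.6% of all windows. Base composition differed among the 5 genes shown: G and C made up 77.2% of the Ybx2 stretch, which holds 35 CpG dinucleotides, against 40.4% of the Bmp15 stretch, which holds 2. These matches are descriptions of the letters in each window, and binding was not measured.

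The largest library held 24758222 estimated counts and the smallest 17620903 (1.41-fold), and CPM is used below for counts divided by the TMM-normalized library size, a unit in which 1 count was worth 0.039 to 0.0624 CPM. Markers of the labelled tissue were checked before the comparison. Inha, which encodes a subunit of the granulosa hormone inhibin, had 32, 34 and 3959 counts in high 1, high 3 and high 4, and 3156, 23 and 2817 counts in low 1, low 2 and low 5. Fshr, the follicle-stimulating hormone receptor, had 0, 0 and 79 counts across the high libraries and 26, 1 and 67 across the low libraries. Amh, made by granulosa cells of growing follicles, had 8, 2 and 437 counts and 103, 0 and 178 counts in the same order. Foxl2, a granulosa transcription factor, did not fall to 0 and stood at 21.4, 10.3 and 21.6 CPM in high 1, high 3 and low 2 and 31.1 to 56.3 CPM in the rest (it was picked after its values were seen). Fshr was at or near 0, and Inha and Amh far lower than elsewhere, in high 1, high 3 and low 2, so these libraries stand apart from the other 3 under the same tissue label. The main results are given with all 6 libraries and again without those 3.

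The oocyte genes divided the libraries in the same way. Their summed level was 11.1 CPM in high 1, 23.2 CPM in high 3 and 173 CPM in high 4, and 42.1 CPM in low 1, 12.2 CPM in low 2 and 120 CPM in low 5. These sums rest on 217, 371, 3442, 728, 228 and 3079 counts in that order, and the exact Poisson intervals (95%, counting error only) were 9.66 to 12.7, 20.9 to 25.6, 167 to 179, 39.1 to 45.2, 10.6 to 13.8 and 116 to 124 CPM. Each group thus held at least 1 library near the bottom and 1 near the top of the range, and the groups overlapped. The highest library, high 4, was 15.6-fold above the lowest, high 1, both of the high litter size group. High 4 and low 5, the highest libraries of their groups, differed 1.44-fold. Low 1 lay between, 4.12-fold below high 4 and 1.82-fold above high 3. In bulk tissue, fewer oocytes, less RNA per oocyte and a larger share of RNA from other tissue cannot be told apart. The same holds for the markers of other cell types.

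**Figure D1:**
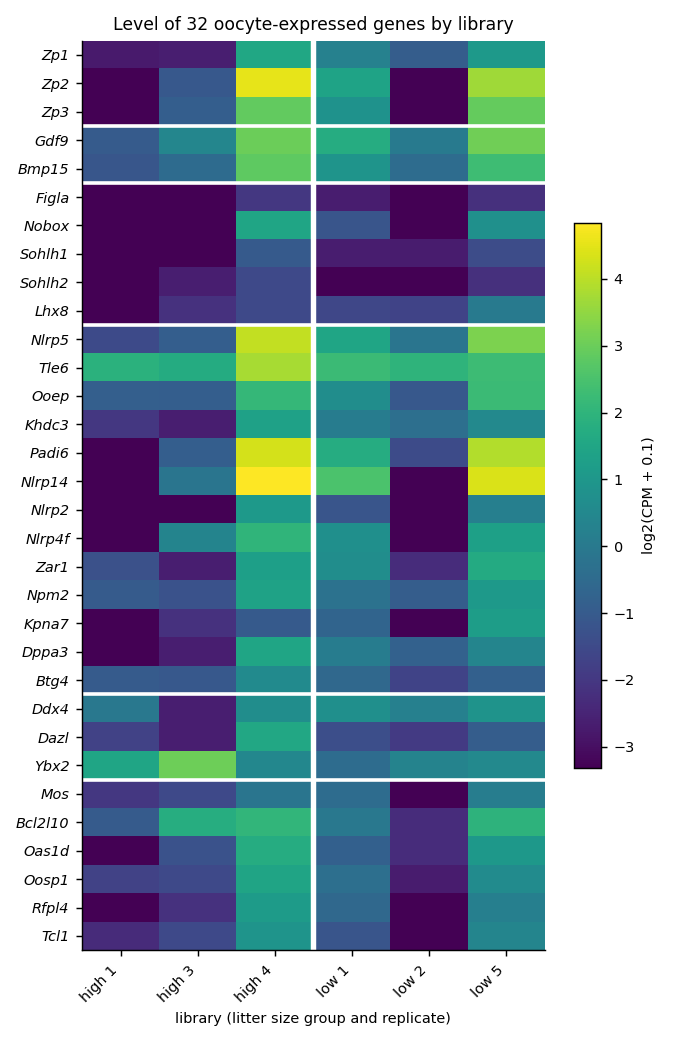
Level of each of the 32 oocyte genes in each of the 6 libraries, coloured by log2(CPM + 0.1), with genes ordered by role and white lines between roles and between litter size groups; each cell is 1 gene in 1 library. High 4 and low 5 are the bright columns, in each of which 26 of 32 genes exceed 1 CPM, while high 1, high 3 and low 2 are mostly dark apart from Tle6, Ybx2 and a few others.

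Most of the genes followed this order one by one. Of the 32 genes, 31 were highest in high 4 (23 genes) or low 5 (8 genes), and 28 had high 4 and low 5 as their 2 highest libraries. High 4, low 5 and low 1 were the 3 highest libraries for 29 genes, the exceptions being Sohlh2, Ybx2 and Bcl2l10. No counts were found for 15 of the genes in high 1 and for 12 in low 2, and 10 had none in both: Zp2, Zp3, Figla, Nobox, Sohlh2, Nlrp14, Nlrp2, Nlrp4f, Kpna7 and Rfpl4. In high 4 and low 5 none of the 32 was at 0. For a count of 0 a set floor of 3 counts was used, which is 0.153 CPM in high 1 and 0.16 CPM in low 2. It allows for counting error only and is not 1 of the exact intervals.

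The zona pellucida genes encode the coat glycoproteins to which sperm bind. Zp2 (ENSMUSG00000030911, chromosome 7 from 120126772 to 120145291, GRCm38, GENCODE M21, a protein-coding gene on the minus strand) had 0, 6 and 458 counts in high 1, high 3 and high 4, and 44, 0 and 325 counts in low 1, low 2 and low 5. It was 150-fold higher in high 4 than in high 1, where it had no counts and the floor of 3 counts was used. Zp3 (ENSMUSG00000004948, chromosome 5 from 135980099 to 135988624, plus strand) had 0, 7 and 146 counts across the high libraries and 29, 0 and 190 across the low libraries. Zp1 (ENSMUSG00000024734, chromosome 19 from 10914287 to 10920632, minus strand), which cross-links the filaments of the coat, had 1, 1 and 56 counts and 19, 8 and 52 counts. All 3 genes were high in high 4 and low 5 and low in high 1, high 3 and low 2, with a wide overlap of the groups. Between high and low litter size the log2 differences were 0.62 (SE 2.17) for Zp2, -0.23 (SE 1.95) for Zp3 and -0.27 (SE 1.38) for Zp1, with edgeR quasi-likelihood adjusted p of 0.92, 0.97 and 0.945. Summed over the 3 genes, the level was 33.2 CPM in high 4 and 0.0511 CPM, a single count, in high 1.

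GDF9 and BMP15 are growth factors of the TGF-beta family, secreted by the oocyte, that act on granulosa and cumulus cells. Gdf9 (ENSMUSG00000018238, chromosome 11 from 53431023 to 53437904, plus strand) had 8, 20 and 157 counts in high 1, high 3 and high 4 and 56, 17 and 215 counts in low 1, low 2 and low 5. In CPM these are 0.409, 1.25 and 7.89 across the high libraries and 3.23, 0.906 and 8.38 across the low libraries, with means of 3.18 ± 4.10 and 4.17 ± 3.82 (SD, n = 3). Bmp15 (ENSMUSG00000023279, chromosome X from 6314107 to 6320721, minus strand) had 7, 10 and 137 counts and 31, 12 and 125 counts in the same order. Unlike Zp2 and Zp3, both growth factor genes were counted in every library. The log2 difference between the groups was -0.39 (SE 1.17) for Gdf9 and 0.10 (SE 1.22) for Bmp15, with edgeR adjusted p of 0.905 and 0.977. Bmp15 made up 33.3 to 46.7% of the counts of the pair in all 6 libraries, and the exact binomial (Clopper-Pearson) intervals of high 4 (40.8 to 52.5%) and low 5 (31.6 to 42.1%) overlapped.

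The receptors and Smad proteins through which GDF9 and BMP15 signal are expressed widely in somatic cells. All 15 genes of that list were tested, 0 passed by edgeR, 2 (Acvr1b and Smad7) were lower in the high group at an unadjusted p under 0.05 and passed in DESeq2, and the median log2 difference was 0.26, against 0.07 over all genes tested. Of all tested genes, 14.4% were at an unadjusted p under 0.05 and 6.56% passed in DESeq2, shares to be read beside this list and the cumulus list. Their summed level ran from 778 to 1160 CPM. Single genes varied more: Bmpr1b, a type 1 receptor known in granulosa cells, ran from 1.17 CPM in low 2 to 33.1 CPM in high 4, a 28.2-fold range (it was picked after its values were seen). Bmpr2, the type 2 receptor of both factors, stood at 141, 139 and 254 CPM across the high libraries and 150, 133 and 140 CPM across the low libraries, so that high 4 was its highest library. Bmpr1a, a type 1 BMP receptor, stood at 150, 140 and 203 CPM and 244, 245 and 206 CPM. Its groups did not overlap, and its edgeR adjusted p was 0.387 (log2 difference -0.50, SE 0.23). The groups of Acvr1b, Smad7, Smad3 and Smad9 did not overlap either, and 19.5% of all tested genes had such groups. Smad3 and Smad9 were picked after their values were seen. Among 7 cumulus genes known as targets of oocyte factors, 0 passed by edgeR and 1, Ptx3, was higher at an unadjusted p under 0.05 and passed in DESeq2. Of these, Ptgs2, the prostaglandin synthase of cumulus expansion, had 592 and 567 counts in high 4 and low 1 but 37 in low 5, and 33, 11 and 36 counts in high 1, high 3 and low 2. Ptgs2 was thus low in low 5, where Gdf9 had its highest level. Pfkp, a glycolytic enzyme that oocytes are known to promote in cumulus cells, was highest in high 3 at 194 CPM and lowest in high 4 at 53.3 CPM. Grem1 and Amh, of the same list, were highest in high 4 (28.5 and 22.0 CPM), then low 5 (8.11 and 6.94) and low 1 (7.05 and 5.95). Has2 and Ptx3 were highest in high 1 and Tnfaip6 in low 5. Of these, Grem1, Has2, Ptx3 and Tnfaip6 were picked after their values were seen.

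The transcription factors that set up the oocyte programme had the fewest counts of the 6 roles in 5 libraries and tied for the fewest in low 2. Nobox (ENSMUSG00000029736, chromosome 6 from 43303674 to 43309554, minus strand) had 54 counts in high 4, 41 in low 5, 6 in low 1 and 0 in high 1, high 3 and low 2. Figla had 3 counts each in high 4 and low 5, 1 in low 1 and none elsewhere, so that it did not exceed the floor of 3 counts in any library. Sohlh1, a helix-loop-helix factor of early oocytes, had 8 and 7 counts in high 4 and low 5 and at most 1 in the others. Sohlh2, its partner, had 5 counts in high 4, 3 in low 5, 1 in high 3 and none in the other libraries. Lhx8, a LIM homeobox factor, had 0, 2 and 5 counts across the high libraries and 4, 4 and 24 across the low libraries. The counts of Nobox, Figla and Sohlh1 were highest in high 4 and low 5, but only Nobox and Lhx8 exceeded 20 counts in any library. None of the 5 passed the filter on low counts. In a fit without that filter their log2 differences ran from -1.87 (Lhx8, SE 1.15) to 1.12 (Sohlh2, SE 1.55), with adjusted p of 0.618 and 0.793.

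The maternal effect genes held most of the oocyte counts in high 4, low 1, low 2 and low 5. Nlrp14 (ENSMUSG00000016626, chromosome 7 from 107166990 to 107198102, plus strand), a NOD-like receptor gene expressed in germ cells, was the most counted of the 32 genes, with 0, 13 and 569 counts across the high libraries and 98, 0 and 526 across the low libraries. It was 187-fold higher in high 4 than in high 1, where it had no counts and the floor of 3 counts was used. Padi6 (ENSMUSG00000040935, chromosome 4 from 140727355 to 140742643, minus strand), a protein of the oocyte's cytoplasmic lattices, had 0, 7 and 394 counts and 56, 5 and 376 counts. Nlrp5 (ENSMUSG00000015721, chromosome 7 from 23385889 to 23441922, plus strand), also called MATER, a core subunit of the subcortical maternal complex, had 5, 7 and 336 counts and 46, 15 and 239 counts. These 3 genes were highest in high 4, then low 5, then low 1, the order also of Zp1 and Zp2, whereas Zp3 was highest in low 5. Their log2 differences between groups were 0.17 (SE 2.13) for Nlrp14, 0.15 (SE 1.96) for Padi6 and 0.46 (SE 1.57) for Nlrp5, with edgeR adjusted p of 0.98, 0.98 and 0.917.

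Other subunits of the subcortical maternal complex were less even in their pattern. Ooep, which encodes FLOPED, had 9, 7 and 85 counts across the high libraries and 26, 7 and 120 across the low libraries. Khdc3, which encodes FILIA, had 3, 1 and 49 counts and 17, 13 and 34 counts. Tle6 (ENSMUSG00000034758, chromosome 10 from 81590904 to 81601073, minus strand), a member of the transducin-like enhancer family, had 71, 50 and 273 counts and 81, 73 and 122 counts. Tle6 was highest in high 4, as were Nlrp5 and Khdc3, whereas Ooep was highest in low 5. Yet Tle6 stood at 3.12 to 4.75 CPM in the 5 libraries other than high 4, including those where Nlrp5 was under 1 CPM. Its spread within the low group was 0.28 on the log2 scale, against 3.38 for Nlrp5. The log2 difference of Tle6 between groups was 0.62 (SE 0.62, edgeR adjusted p = 0.693).

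Of the further maternal effect genes, Zar1, known for its part in the oocyte-to-embryo transition, had 6, 1 and 47 counts across the high libraries and 26, 2 and 79 across the low libraries. Npm2, an oocyte histone chaperone, had 8, 5 and 50 counts and 13, 8 and 52 counts. Dppa3, which encodes STELLA and protects methylation of the maternal genome in the zygote, had 0, 1 and 53 counts and 17, 9 and 31 counts. Each of these 3 was highest in high 4 or low 5 and under 10 counts in high 1, high 3 and low 2. Kpna7, an importin of oocytes, had 58 counts in low 5 and 9, 8 and 2 in low 1, high 4 and high 3. Nlrp2 and Nlrp4f, relatives of Nlrp5, had 41 and 79 counts in high 4 and none in high 1 and low 2. Btg4, an adaptor for the decay of maternal RNA, had 8, 6 and 28 counts and 10, 4 and 12 counts. Of the 13 maternal effect genes, 10 passed the filter on low counts, and 0 of these passed by edgeR in either direction, by DESeq2, or in edgeR at an unadjusted p under 0.05. Over all tested genes those shares were 0.00608%, 6.56% and 14.4%. Several of these genes have close copies or overlapping genes among which counts may be shared: transcripts of Nlrp5 and its pseudogene Nlrp5-ps matched at 97.1% identity over 1025 bases, and the pseudogene had 8 to 41 counts in the 6 libraries. Transcripts of Dppa3 and Khdc3 matched copies with 0 counts in every library (Dppa3-ps and Gm20509), and those of Zar1 matched Gm15847 (at most 2 counts) and Gm42668, which was not analysed here. Nlrp5, Khdc3, Nlrp2, Npm2, Kpna7 and Btg4 overlap other annotated genes, and whether the counting used strand was not stated.

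The 3 RNA-binding genes of germ cells did not share 1 pattern. Dazl, a translational regulator, had 4, 1 and 57 counts across the high libraries and 5, 3 and 11 across the low libraries, so that high 4 stood alone. Ddx4 (ENSMUSG00000021758, chromosome 13 from 112598333 to 112652475, minus strand), the Vasa RNA helicase, had 17, 1 and 30 counts and 27, 20 and 45 counts; it was present in low 2 and high 1, where Zp2 had no counts. Ybx2 (ENSMUSG00000018554, chromosome 11 from 69935796 to 69941605, plus strand), which encodes MSY2, a protein that packages stored RNA in germ cells, had 53, 131 and 25 counts in high 1, high 3 and high 4 and 11, 22 and 34 counts in low 1, low 2 and low 5. In CPM Ybx2 stood at 2.71, 8.18 and 1.26 across the high libraries and 0.635, 1.17 and 1.33 across the low libraries, with means of 4.05 ± 3.65 and 1.04 ± 0.362 (SD, n = 3). Its 2 highest libraries, high 3 and high 1, are 2 of the 3 libraries with low oocyte sums, in which 14 of 32 genes (high 3) and 19 of 32 (high 1) were at or under 3 counts. Low 5 lay above high 4, so the groups overlapped. Ybx2 had the smallest p of the tested oocyte genes (log2 difference 1.94, SE 0.76, unadjusted p = 0.0393, edgeR quasi-likelihood adjusted p = 0.329), and without high 3 its log2 difference was 0.92.

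The summed adipocyte markers shared their highest and lowest library with Ybx2. The 8 adipocyte markers summed to 3579, 28187 and 2503 CPM in high 1, high 3 and high 4 and to 334, 4071 and 1446 CPM in low 1, low 2 and low 5, so that for their sum, as for Ybx2, high 3 was highest and low 1 lowest. Fabp4, a fatty acid carrier of adipocytes, stood at 1278, 10662 and 916 CPM in high 1, high 3 and high 4 and at 94.0, 1404 and 262 CPM in low 1, low 2 and low 5. Cidec, a lipid droplet protein, stood at 409, 5643 and 346 CPM and 27.8, 484 and 199 CPM in the same order. All 8 markers were highest in high 3, as Ybx2 was. The next library was high 1 for Cfd and Ucp1, as for Ybx2, but low 2 for 5 markers and high 4 for Lep. Low 2, second in the adipocyte sum, had Ybx2 at 1.17 CPM, below low 5 and high 4. Ucp1, the uncoupling protein of brown and beige fat, had 136 and 1199 counts in high 1 and high 3 and at most 3 in each other library (Cfd, Lep and Ucp1 were picked after their values were seen). The part of fat in the Ybx2 result was not tested.

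The genes of meiosis and the remaining oocyte-enriched genes followed the main order in high 4 and low 5. Mos, the kinase that holds the egg at metaphase of the second meiotic division, had 3, 4 and 16 counts across the high libraries and 11, 0 and 26 across the low libraries. Oosp1, an oocyte-secreted protein gene, had 4, 4 and 52 counts and 12, 1 and 37 counts. Bcl2l10, a relative of BCL2 found in oocytes, had 8, 53 and 80 counts and 15, 2 and 96 counts, and stood at 3.31 CPM in high 3, close to its 3.74 CPM in low 5. Bcl2l10 was therefore, with Ybx2, one of the genes that kept a level above 1 CPM in high 3. Rfpl4, a ring finger gene of oocytes, had 42 and 27 counts in high 4 and low 5 and none in high 1 and low 2. Oas1d, a relative of the interferon-induced oligoadenylate synthases that is expressed in oocytes, had 64 and 50 counts in high 4 and low 5 and 0 to 8 in the other libraries; its transcript matched that of Oas1c at 96.3% identity over 214 bases, and counts of the pair may be shared. Tcl1, an AKT co-activator, had 35 and 31 counts in high 4 and low 5 and 0 to 6 in the others.

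**Figure D2:**
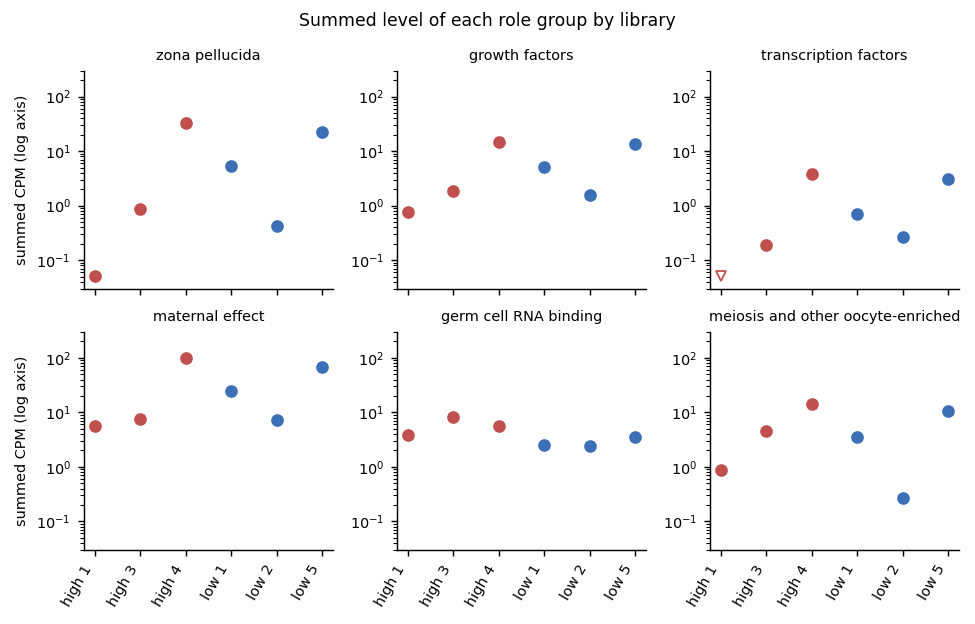
Summed CPM of each of the 6 roles in each library on a log axis, 1 panel per role, high litter size libraries in red and low in blue; the open triangle marks a sum of 0 counts. Zona pellucida genes span 0.0511 to 33.2 CPM and maternal effect genes 5.62 to 101 CPM, while the germ cell RNA-binding genes stay within 2.40 to 8.30 CPM.

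Levels of different genes can be compared only per length, so counts were divided by the length of the longest annotated transcript and scaled to equal totals (a TPM-like scale). On that scale the most abundant oocyte genes in high 4 were Zp2 at 26.0, Nlrp14 at 23.7 and Padi6 at 23.0, followed by Tle6 at 18.4. In low 5 Padi6 and Nlrp14 stood at 16.1 each, Zp3 at 14.3, Zp2 at 13.6 and Gdf9 at 12.0. The leading genes of these libraries were thus mostly zona and maternal effect genes. In low 1 Tle6 led at 5.89, before Gdf9 at 4.58 and Nlrp14 at 4.39. In high 1 and low 2 Tle6 led at 4.96 and 4.75, with Ybx2 next at 4.46 and 1.72, and in high 3 Ybx2 led at 9.43, before Bcl2l10 at 5.23 and Tle6 at 2.99. Neighbours in these orders differ by little beside the spread of each gene over the libraries of a group, so the order within a library is a description of that library.

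The make-up of the oocyte counts differed between the libraries as well as their sum. Ybx2, Tle6 and Ddx4 together made up 65.0, 49.1 and 9.53% of the oocyte gene counts in high 1, high 3 and high 4, and 16.3, 50.4 and 6.53% in low 1, low 2 and low 5. These 3 genes were picked after their values were seen. With them left out, high 4 was 40.3-fold above high 1 in place of 15.6-fold. The share of zona pellucida counts among zona and growth factor counts was 69.2% in high 4 (95% Clopper-Pearson interval 66.1 to 72.1), 62.5% in low 5 (59.3 to 65.7) and 51.4% in low 1 (43.8 to 58.9). It was 31.8% in high 3 (18.6 to 47.6), 21.6% in low 2 (9.83 to 38.2) and 6.25% in high 1 (0.158 to 30.2), where it rests on 16 counts. Zona genes and growth factors, both oocyte products, therefore did not keep 1 ratio across the libraries, and the lowest shares were in the libraries with the fewest oocyte counts. Maternal effect genes made up 50.7 to 59.6% of oocyte counts in 5 libraries and 32.1% in high 3, where Ybx2 alone made up 35.3%.

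**Figure D3:**
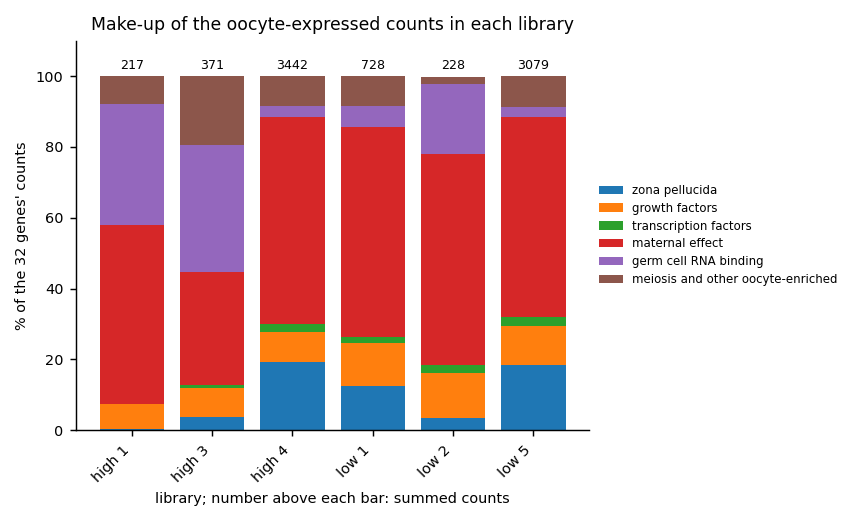
Share of each role in the oocyte gene counts of each library, in percent, as bars stacked to the whole, with the number of counts behind each library. Germ cell RNA-binding genes take 34.1% and 35.8% in high 1 and high 3, 19.7% in low 2 and 2.92 to 5.91% in the other 3 libraries, while zona genes take 0.461% in high 1 and 19.2% in high 4.

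By its title, the study set out to profile fitness-related genes of the ovary, and litter size is the trait that separates its groups. Of the 32 oocyte genes, 21 passed the filter on low counts, and 0 of the 21 passed in either direction at an adjusted p of 0.05 by edgeR's quasi-likelihood test, where 0.00608% of all 16455 tested genes passed. At an unadjusted p under 0.05 there was 1 gene, Ybx2, against 14.4% of all tested genes. DESeq2 also passed 0 of the 21, where it passed 6.56% of genes with a defined adjusted p, and Ybx2 had an adjusted p of 0.126 there; Mos and Rfpl4 had no defined adjusted p in DESeq2. In 0 of the 32 genes did the 3 high libraries all lie on one side of the 3 low libraries, against 19.5% of all tested genes. Differences were positive for 13 and negative for 8 of the 21, with a median of 0.10 on the log2 scale against 0.07 over all tested genes. In the fit without a filter, which held all 32, they were positive for 19 and negative for 13, with a median of 0.11.

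**Figure D4:**
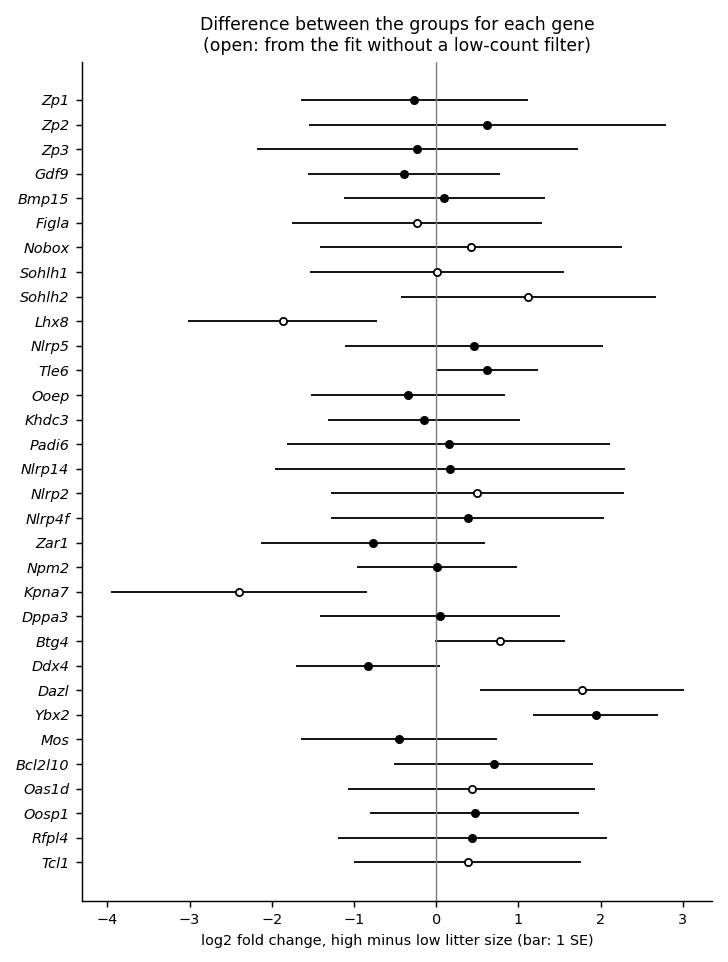
Log2 difference, high minus low litter size, of each oocyte gene, in the order of the roles, with bars of 1 standard error to each side; filled points are the 21 genes of the main edgeR fit and open points the 11 taken from the fit without a filter on low counts. The bars of Ybx2, Dazl, Lhx8 and Kpna7 lie clear of 0 at 1 standard error, none of the 21 tested genes passed, and the median standard error of those 21 is 1.27.

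The width of these errors sets what could be seen. The median standard error was 1.27 on the log2 scale for the 21 genes and 0.36 for all tested genes. Within the high group the highest and lowest library of a gene differed by a median of 3.96 on the log2 scale for the oocyte genes tested and 0.85 for all tested genes, and within the low group by 3.33 and 0.57. Single libraries set the direction: without high 4, 19 of the 21 differences were negative with a median of -2.38, and without low 5, 20 of the 21 were positive with a median of 1.11. Without high 1, high 3 and low 2 together, which leaves 1 high library whose spread is taken from the 2 low ones, 19 of the 21 were positive with a median of 0.97. In that fit 29 of the 32 genes could be tested and 0 passed by edgeR, while 2, Tle6 and Dazl, were at an unadjusted p under 0.05, against 9.81% of all genes tested there. In those fits the median over all tested genes stayed between -0.04 and 0.09. A difference between high and low litter size in these genes was not detectable against this spread, which does not show that there is none.

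A second list held 26 oocyte genes outside the 32. Its summed level was 97.1, 78.3 and 108 CPM in high 1, high 3 and high 4 and 49.7, 44.1 and 72.8 CPM in low 1, low 2 and low 5, so that high 1 was second and the order of the 32 genes was not repeated in the sum. Gene by gene, 19 were highest in high 4 and 20 in high 4 or low 5, while 12 were at 0 in high 1 and 11 in low 2. H1foo, the oocyte linker histone, had 1, 6 and 99 counts across the high libraries and 24, 0 and 70 across the low libraries, and Astl, the egg protease that cleaves the zona, had 0, 2 and 82 and 20, 0 and 85 (both were picked after their values were seen). The genes of highest mean level were highest in other libraries: Kit, a receptor of oocytes that is also made by other cells, was highest in high 1 at 58.2 CPM. Cpeb1, an RNA-binding regulator of polyadenylation, was highest in high 3 at 40.8 CPM, as Ybx2 was. Of the 26 genes, 12 were tested, and 0 passed by edgeR, by DESeq2, or in edgeR at an unadjusted p under 0.05. Over all tested genes those shares were 0.00608%, 6.56% and 14.4%. Wee2 and Oog1 had no defined adjusted p in DESeq2. Among the 12 tested genes only Cpeb1 had groups that did not overlap, against 19.5% of all tested genes.

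Some marker lists of somatic cells moved with the oocyte genes across the 6 libraries, and others did not. The 10 granulosa markers summed to 357, 319 and 1011 CPM across the high libraries and 884, 407 and 1102 CPM across the low libraries, and Gja1, the gap junction gene, took 169 to 670 CPM of each sum. Kitl, of the same list, was highest in high 3 at 123 CPM and lowest in low 1 at 53.2 CPM. In high 1 Kitl stood at 87.8 CPM and Gja1 at 233 CPM. Each other gene of the list was highest in high 4, low 5 or low 1. The 8 theca and luteal markers summed to 47.9, 124 and 8900 CPM and 771, 49.2 and 3014 CPM; their leading genes were the steroid enzymes Hsd3b1, at 1.69 CPM in high 1 and 3261 CPM in high 4, and Cyp11a1, at 2.25 and 2681 CPM. The order of the 3 highest libraries, high 4, low 5 and low 1, was the same for the theca and luteal sum and the oocyte sum. Star, Lhcgr, Hsd17b7 and Prlr of this list were also highest in high 4, but Cyp17a1 and Insl3 were not. Cyp17a1 stood at 0, 0.499 and 1.51 CPM across the high libraries and 18.8, 0 and 21.1 CPM across the low ones. Insl3 was highest in low 2 at 4.32 CPM and lowest in high 4 at 1.11 CPM. These further genes were picked after their values were seen. Markers of 5 oviduct and ciliated epithelium genes summed to 41.9, 163 and 1557 CPM and 68.3, 50.9 and 468 CPM. Most of the high 4 sum was Ovgp1, the oviduct glycoprotein, at 1380 CPM. Foxj1, Tekt1 and Dnah5 were also highest in high 4 (picked after their values were seen). Pax8 went another way, at 21.5, 10.9 and 20.2 CPM across the high libraries and 58.5, 38.7 and 23.3 CPM across the low ones. The 5 uterus and tract Hox genes summed to 602 CPM in high 1 and 65.8 to 219 CPM in the others, and the 5 stratified epithelium markers to 165, 90.5 and 474 CPM across the high libraries and 3.20 to 16.3 CPM in the low ones. High 1, with the lowest oocyte sum, thus had the highest tract Hox sum, and high 4, with the highest oocyte sum, the highest oviduct and stratified epithelium sums. In each of these 6 somatic lists 0 genes passed by edgeR; at an unadjusted p under 0.05 there were 1 of 10 granulosa genes (Kitl), 0 of 8 theca and luteal, 0 of 7 tested adipocyte, 1 of 4 tested oviduct (Pax8), 1 of 5 Hox (Hoxa13) and 4 of 5 stratified epithelium genes (Krt5, Krt14, Krt15 and Trp63). The share of all tested genes at that threshold was 14.4%, and 6.56% passed in DESeq2. Of the genes named, Kitl, Hoxa13, Krt5, Krt15 and Trp63 passed in DESeq2, and genes named here for their p were picked after their values were seen. The part of these tissues in the oocyte gene levels was not tested.

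**Figure D5:**
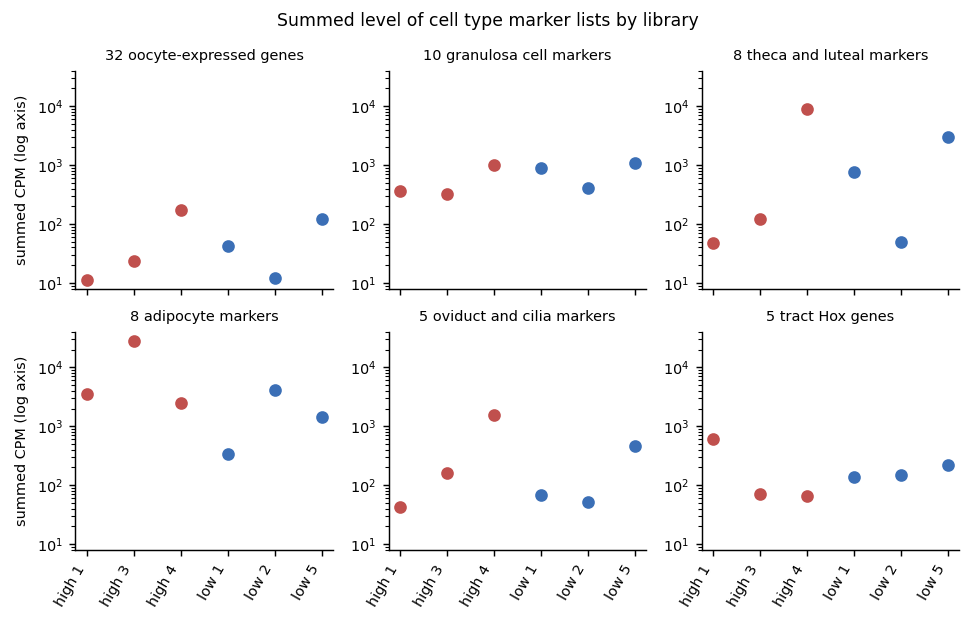
Summed CPM of the 32 oocyte genes and of 5 marker lists of other cell types in each library, 1 panel per list with high litter size libraries in red and low in blue, on a log axis. The oocyte, granulosa and theca and luteal sums are highest in high 4, low 5 and low 1, and the adipocyte sum is highest in high 3 at 28187 CPM.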

How the data were processed

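Gene expression was measured by RNA sequencing of 6 ovary samples. The deposited values are estimated counts per gene, whole numbers. The tools Trim Galore, kallisto and DESeq2, and as genome build GRCm38, are named, with no tool version, per the submitters' processing notes; rounding and annotation release were not stated. kallisto divides reads between similar transcripts, so near-identical genes are uncertain. Symbols and coordinates were matched for 35869 of 36727 genes (GENCODE M21).

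Groups came from the labelled litter size. Genes kept by filterByExpr (minimum count 10, minimum total 15) were TMM-normalized and tested high minus low in edgeR 4.0.16 (R 4.3.3; glmQLFit and glmQLFTest, no covariates), with Benjamini-Hochberg adjustment over all tested genes and a threshold of 0.05. Standard errors were the log2 difference divided by the square root of F. Simulated counts, with 1 spread shared by all genes, were also run, and no result here rests on them. DESeq2 1.42.0, other scalings, no filter and leaving out each library were alternatives, and the joint removal of 3 libraries was added after seeing the data. Counting intervals are exact Poisson or Clopper-Pearson (95%) and cover counting error only. Transcript similarity was searched with blastn 2.17.0 (at least 95% identity over 200 bases). Summaries and plots used Python 3.11.15, pandas 2.3.3 and matplotlib 3.10.9.

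The genes and lists were chosen with earlier results of these data known. All 32 genes are named, with the 2 of highest mean CPM of each other list, or those that pass, and Inha, Fshr and Amh. Others are marked as picked after their values were seen.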

Additional observations from a re-analysis of the deposited data

How the results depend on the processing

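Of all genes, 1 passed in the main edgeR comparison, 2 with scaling to library size alone, 1026 with DESeq2, 0 to 1 with each library left out, and 0 without high 1, high 3 and low 2 together. Of the oocyte genes 0 passed under any of these settings, and the smallest adjusted p of any of them with 1 library left out was 0.172. With TMM scaling, 0 of the 32 oocyte genes and 19.5% of all tested genes had groups that did not overlap. With scaling to library size alone, this held for 1 oocyte gene, Ybx2, and the share of all genes was not taken. That scaling gave Fshr a log2 difference of 0.03 and left the direction of all 21 tested oocyte genes as it was. Without the filter on low counts, Npm2 was at -0.02 and Dppa3 at -0.0014. Without the 3 libraries together, Zp1 was at 0.81, Zp3 at 0.65, Gdf9 at 0.41, Ooep at 0.43, Khdc3 at 1.05 and Zar1 at 0.0071.

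With each library left out in turn, 18 of the 21 tested oocyte genes changed sign at least once. Their log2 differences ran from -4.28 to 0.37 for Zp1, -4.83 to 2.62 for Zp2, -3.87 to 1.63 for Zp3, -2.38 to 0.62 for Gdf9, -2.35 to 1.11 for Bmp15, -3.65 to 1.76 for Nlrp5, -0.42 to 0.96 for Tle6, -2.31 to 0.88 for Ooep, -3.14 to 0.37 for Khdc3, -4.87 to 1.94 for Padi6, -4.51 to 1.79 for Nlrp14, -1.22 to 1.14 for Nlrp4f, -3.04 to 0.19 for Zar1, -1.59 to 0.87 for Npm2, -4.71 to 0.63 for Dppa3, -1.49 to 0.36 for Mos, -1.72 to 1.45 for Oosp1 and -3.15 to 1.37 for Rfpl4. The 3 that kept their sign were Ddx4 (-1.63 to -0.30), Ybx2 (0.92 to 2.33) and Bcl2l10 (0.15 to 2.40). Among genes of the other lists the ranges were -0.04 to 0.49 for Bmpr2, -3.34 to 2.67 for Ptgs2, -0.25 to 0.76 for Pfkp, -5.73 to 0.27 for Inha, -7.79 to 0.77 for Fshr, -3.98 to 1.38 for Amh, -6.54 to 2.97 for Cyp11a1, -7.04 to 2.70 for Hsd3b1, -0.89 to 6.20 for Ovgp1, -1.11 to 1.10 for Hoxa10 and -1.48 to 1.27 for Hoxa11. The cause of these changes was not tested. No paired analysis was possible because high and low libraries have a single replicate number in common. Low counts in high 1, high 3 and low 2 limit every statement on single genes there.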

Other observations

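Relative to the granulosa gene Inha, the oocyte genes were not lowest where their level was lowest. For each 100 counts of Inha there were 678, 1091 and 86.9 oocyte gene counts in high 1, high 3 and high 4, and 23.1, 991 and 109 in low 1, low 2 and low 5. With Ybx2, Tle6 and Ddx4 left out, the values were 238, 556, 78.7, 19.3, 491 and 102 in the same order. The libraries of highest ratio hold only 23 to 34 Inha counts. Low 1 had Inha at 182 CPM, close to the 199 CPM of high 4, beside an oocyte sum of 42.1 CPM against 173 CPM.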
